A study of Mus musculus with 8 samples.

Results

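Clustered protocadherins are cell surface proteins of the cadherin family that neurons use to recognise themselves and each other. Their genes lie in 3 neighbouring arrays, called alpha, beta and gamma, on mouse chromosome 18. All genes whose symbol begins with Pcdha, Pcdhb or Pcdhg were taken, which gave 57 of the 25780 genes counted, 14 in the alpha, 21 in the beta and 22 in the gamma array. The beta gene Pcdhb1 was not analysed here. The members were followed in RNA from dorsal root ganglia, which hold the cell bodies of sensory neurons.

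The study crossed a genotype with a treatment and held 4 groups of 2 libraries each. In the knockout (G9a-iKO, here iKO), both alleles of Ehmt2, the gene of the histone H3 lysine 9 methyltransferase G9a, were floxed, and the inducible Cre was driven by Avil (Avil-iCreERT2/AJwo/G9aflox/flox). Avil is a gene of sensory neurons, so by design glia, immune and vessel cells of an iKO ganglion should keep G9a. Which cells lost it was not measured here. Littermates lacking Cre served as wild type (WT), and the labels leave unstated if their Ehmt2 alleles were floxed. The groups were iKO with complete Freund's adjuvant (CFA, which inflames the injected left paw), iKO with vehicle, WT with CFA and WT with vehicle, each sampled 14 days after injection. Neither the agent that induced Cre, the age and sex of the mice, the side of the ganglia, nor whether each library came from its own animal was stated, so p-values here measure the spread between these libraries, which may be technical.

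In the alpha and gamma arrays each gene starts from its own promoter and its own large variable exon, which encodes the extracellular and transmembrane part, and is spliced to constant exons that all genes of the array share. Beta genes consist of a single coding exon. In many neurons the alternate alpha, beta and gamma A and B isoforms are switched on in small random combinations through promoter choice that needs the DNA-binding protein CTCF and cohesin, whereas the C-type isoforms (Pcdhac1, Pcdhac2, Pcdhgc3, Pcdhgc4 and Pcdhgc5) are made more evenly across cells. The proteins bind like to like between membranes, and in mouse this lets branches of one neuron avoid each other. In bulk tissue, fewer neurons and less RNA per neuron cannot be told apart.

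The members held few reads. They took between 5941 and 16642 reads per library, 0.0226% to 0.0401% of library totals that lay between 26312614 and 42971823 reads. Of the 57, 54 passed the filter on low counts. The 3 that did not were the alternate alpha genes Pcdha4, Pcdha6 and Pcdha7, with 24, 36 and 2 reads in all 8 libraries together, and 21 of the 24 reads of Pcdha4 came from WT CFA library 1. The GENCODE M21 annotation (GRCm38) is of an older build than that of the files. In it, these 3 genes share 2500, 621 and 338 bases, which no other member holds, with gene models that are no members. Some members with more reads share such bases too, as Pcdha12 (531 bases, 2656 reads) and Pcdhgc3 (1559 bases, 12453 reads) do. Pcdha8 shares 0 and held 67 reads. The part of this sharing in low counts was not tested. In the same annotation every alpha gene shares 38.0% to 54.9% of its exonic bases with other members and every gamma gene 27.8% to 66.8%, whereas of the 21 beta genes only 2 share any, at most 9.7%. How the authors' counting treated reads in shared exons was not stated. Pcdha7 carries the alpha constant exons and still held only 2 reads, so reads in those exons were not counted for every alpha gene. The fit gave a fold change for Pcdha8 that depends on the prior count, because both iKO CFA libraries and WT CFA library 2 were at 0 reads of it, and that fold change is not given.

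The C-type isoforms Pcdhac2, Pcdhgc3 and Pcdhac1 stood highest on average among the members when levels were set per length. CPM, reads per 1000000 reads of a library whose size was scaled by TMM (a trimmed mean of log ratios between libraries), were divided by the kilobases of M21 exon that no other member shares. This length keeps bases shared with gene models that are no members, 1559 of 3380 for Pcdhgc3 and 0 of 3028 for Pcdhac2. The ranks hold for this length only. Pcdhac2, an alpha C-type isoform, averaged 21.1 CPM per kilobase over the 8 libraries and ranked first in each of them. Pcdhgc3, a gamma C-type isoform that in mouse binds the Wnt pathway scaffold Axin1, averaged 13.1 CPM per kilobase and ranked second in each. Pcdhac1, the other alpha C-type isoform, averaged 8.51 CPM per kilobase and ranked 3 or 4. The next 3 were Pcdha12 at 3.77, Pcdhb9 at 3.66 and Pcdhga11 at 2.98 CPM per kilobase, the most abundant alternate alpha, beta and gamma A genes. Their ranks ran from 4 to 9 for Pcdha12, 3 to 20 for Pcdhb9 and 4 to 8 for Pcdhga11, so their order was not stable between libraries. The other 48 tested members averaged between 0.0823 and 2.23 CPM per kilobase with a median of 0.953. The lowest of them was Pcdhgc5, a C-type isoform that binds a GABA-A receptor subunit in rodent neurons. Pcdhgc4, the remaining C-type isoform, averaged 1.15 CPM per kilobase, so the C-type isoforms lay at both ends of the scale and between.

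Summed over all 57 genes, the level was 283 and 295 CPM in iKO CFA, 408 and 416 CPM in iKO vehicle, 440.3 and 290 CPM in WT CFA, and 199 and 263 CPM in WT vehicle. With CFA the sum was thus lower in iKO and higher in WT, and neither pair of groups overlapped. The ratio of group means on the log2 scale was -0.51 for CFA over vehicle in iKO and 0.66 in WT. Under vehicle the iKO sum exceeded the WT sum by 0.83, also without overlap. Under CFA the ratio of iKO over WT was -0.34, with iKO CFA library 2 above WT CFA library 2. These directions were the same with RLE size factors and with total reads. With total reads the log2 ratio of CFA over vehicle in WT was 0.33 and the groups overlapped, since the members took 0.0396% and 0.0263% of reads in WT CFA and 0.0226% and 0.0297% in WT vehicle. Per summed level of sensory neuron markers the 4 ratios became 0.06, -0.03, -0.05 and 0.05 in the order given. No test was made over the sum, since the members had been chosen with results of these data known.

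In summed CPM the alpha array varied most between libraries and the beta array least, an order that did not hold per summed level of sensory neuron markers, where beta spanned 1.57-fold, alpha 1.502-fold and gamma 1.21-fold. Alpha genes summed to 96.4 and 109.5 CPM in iKO CFA, 172 and 179 CPM in iKO vehicle, 175 and 84.8 CPM in WT CFA, and 58.2 and 98.7 CPM in WT vehicle, a 3.08-fold span. Gamma genes summed to 105 and 111 CPM in iKO CFA, 147 and 146 CPM in iKO vehicle, 159 and 109 CPM in WT CFA, and 74.4 and 84.8 CPM in WT vehicle, a 2.14-fold span. Beta genes spanned 1.59-fold, with 81.7 and 73.9 CPM in iKO CFA, 89.0 and 91.6 CPM in iKO vehicle, 106 and 95.6 CPM in WT CFA, and 66.4 and 79.6 CPM in WT vehicle. In iKO every class was lower with CFA than with vehicle without overlap of the libraries, from a log2 ratio of -0.90 for the alternate alpha genes to -0.21 for the beta genes. In WT every class was higher with CFA, from 0.47 for beta to 0.91 for gamma C, and the libraries overlapped only for alpha C. The WT CFA libraries differed most: the median log2 difference of library 1 over library 2 across tested members was 0.45, against -0.01 in iKO CFA, 0.003 in iKO vehicle and -0.26 in WT vehicle. Of the 54 tested members, 26 had their highest CPM in WT CFA library 1.

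**Figure D1:**
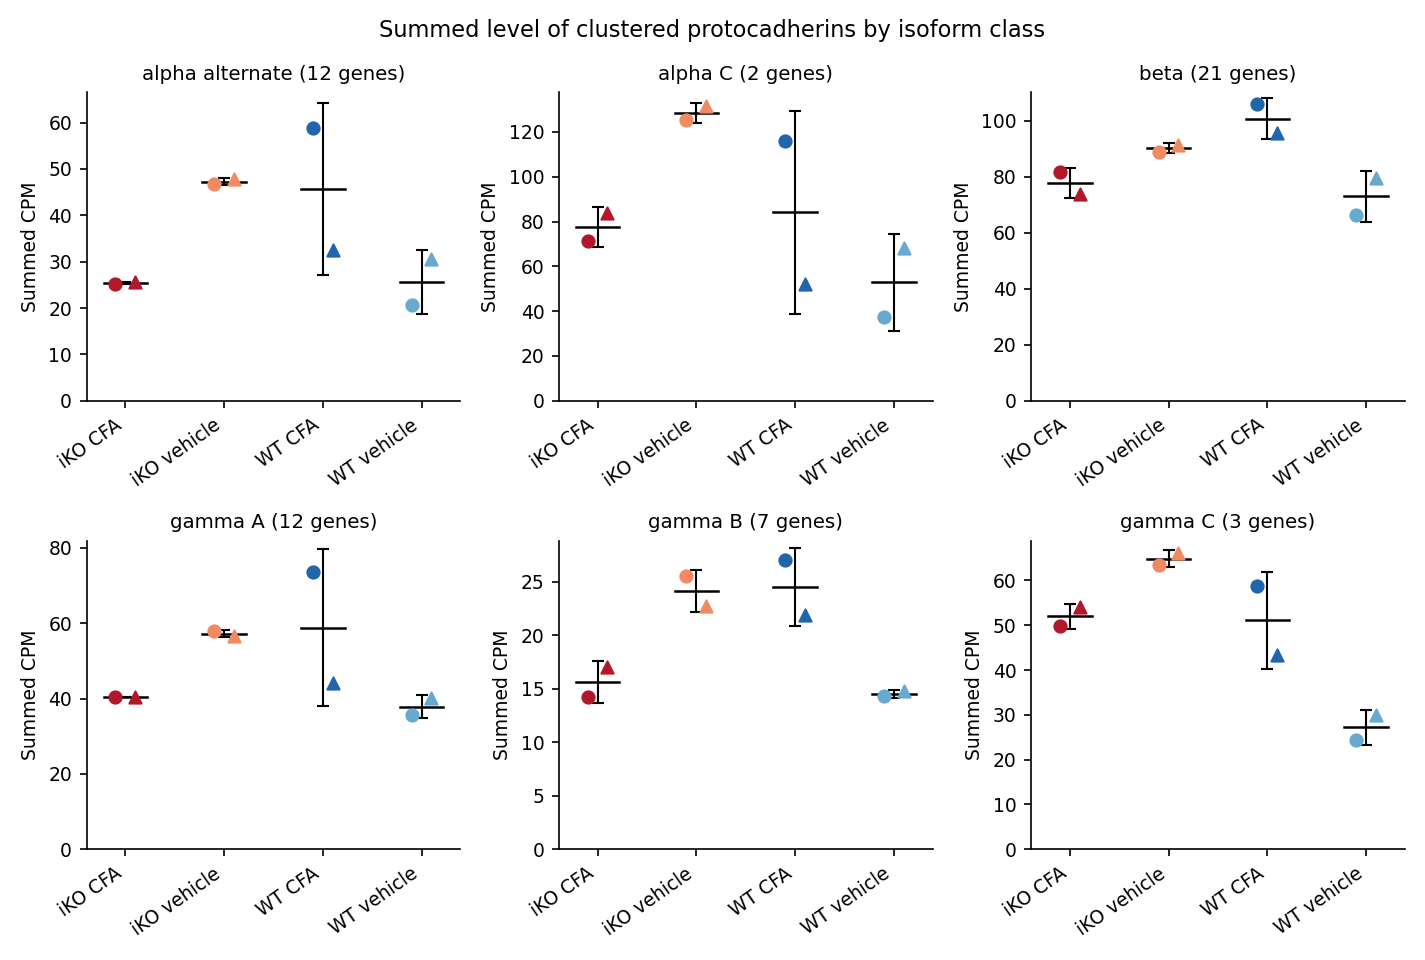
Summed CPM (y axis, from 0) of the members of each isoform class in each library, by group (x axis). Circles are library 1 and triangles library 2 of a group, horizontal lines the mean and bars the SD (n = 2). In iKO both CFA libraries lie below both vehicle libraries in all 6 classes. The WT CFA libraries lie apart from each other, though for beta (106 and 95.6 CPM) less than the WT vehicle libraries (66.4 and 79.6 CPM).

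**Figure D2:**
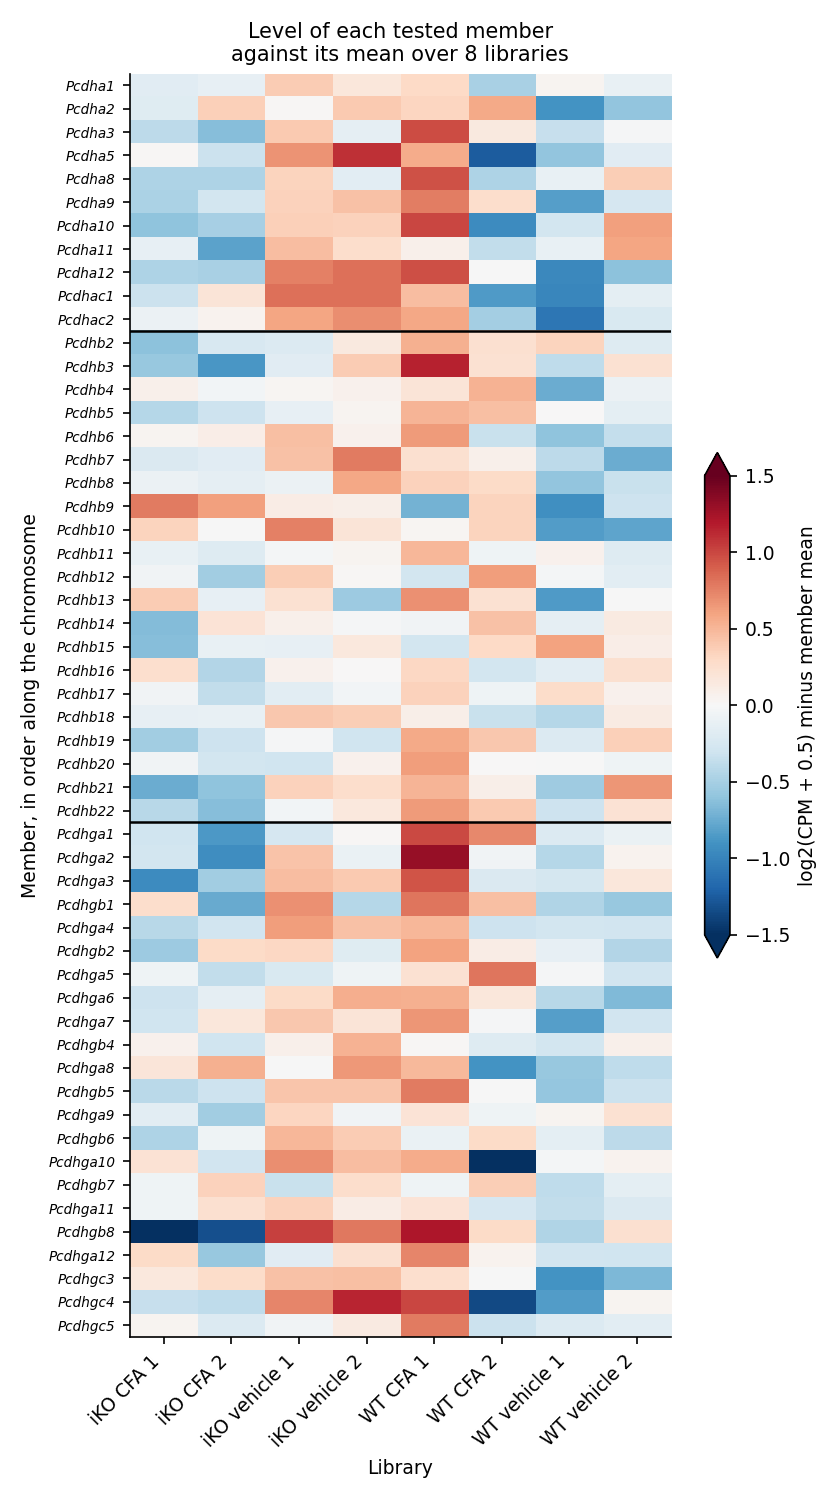
Level of each of the 54 tested members in each library, as log2(CPM + 0.5) minus the member's mean over the 8 libraries, in order along the chromosome; black lines part the alpha, beta and gamma arrays, and colours stop at ±1.5. Columns of WT CFA library 1 and both iKO vehicle libraries are mostly red, and those of WT vehicle library 1 and both iKO CFA libraries mostly blue.

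The first comparison within a genotype asks how these genes compare between CFA and vehicle in iKO ganglia. In iKO, 0 of the 54 tested members passed with CFA in edgeR's quasi-likelihood test (Benjamini-Hochberg adjusted p under 0.05 over 20235 genes), where 0.0395% of all genes passed. Of the 54, 10 had an unadjusted p under 0.05 (18.5%), against 28.6% of all genes, and DESeq2 called 4 as lower (7.41%), against 9.18% of all genes. Both shares lay below those of all genes. The median log2 fold change of the members was -0.57, against -0.001 for all genes, and 50 of the 54 lay below 0. For 35 members both CFA libraries lay below both vehicle libraries and for 1 above, where 35.6% of all genes were separated below and 33.9% above.

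Pcdhgb8, a gamma B gene that M21 lists as a polymorphic pseudogene, had the smallest p. It had 0 and 7 reads in iKO CFA, 124 and 87 in iKO vehicle, 132 and 47 in WT CFA and 23 and 52 in WT vehicle. Both iKO CFA libraries thus lay below all 6 others. A count of 0 of 3472 gamma reads in iKO CFA library 1 allows a share of up to 0.106% (exact binomial interval, 95%, counting error only). In iKO CFA library 2 the share was 0.172% (up to 0.355%), and the 6 other libraries had 1.04% to 2.21%. The log2 fold change of Pcdhgb8 with CFA in iKO was -4.76 ± 0.97 (edgeR adjusted p = 0.0903). Its size is uncertain with so few reads in iKO CFA, and leaving out single libraries gave -9.54 to -3.84. Pcdha12 stood at -1.33 ± 0.33 (adjusted p = 0.0951) and the beta gene Pcdhb7 at -0.88 ± 0.27 (0.105). Among the C-type isoforms the log2 fold changes were -0.67 ± 0.37 for Pcdhac2, -0.88 ± 0.43 for Pcdhac1, -0.23 ± 0.18 for Pcdhgc3, -1.48 ± 0.74 for Pcdhgc4 and -0.27 ± 0.94 for Pcdhgc5. Pcdhb9 was 1 of the 4 members above 0, with 18.2 and 16.2 CPM in iKO CFA and 11.3 and 11.1 CPM in iKO vehicle (0.62 ± 0.36, adjusted p = 0.277). It was the 1 member whose CFA libraries both lay above both vehicle libraries. Pcdhga11 stood at -0.15 ± 0.26 and Pcdhgb6, the gamma B gene with the highest mean CPM, at -0.77 ± 0.31 (0.149). Fitted to the 4 iKO libraries alone, 45.3% of all genes passed, 23.4% as lower, and of 53 members 17 passed, 16 as lower (30.2%). Without WT CFA library 1 or 2, with both iKO groups complete, 13 and 15 of 55 members passed, all lower (23.6% and 27.3%), where 17.6% and 17.7% of all genes passed as lower. Without each of the 6 other libraries 0 members and 0 genes in all passed.

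In WT, 5 of the 54 members rose with CFA and 0 fell, where 8.12% of all genes rose and 8.71% fell. The median log2 fold change of the members was 0.61, against -0.03 for all genes, 47 lay above 0 and 14 had an unadjusted p under 0.05 (25.9%), against 33.5% of all genes. For 26 members both CFA libraries lay above both vehicle libraries and for 0 below, against 25.3% and 30.8% of all genes.

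Pcdhgc3 had the smallest p. It had 50.6 and 42.1 CPM in WT CFA and 22.5 and 26.2 CPM in WT vehicle, a rise of 0.93 ± 0.18 (edgeR adjusted p = 0.0131). The other 4 were alternate isoforms: Pcdha12 at 1.43 ± 0.34 (adjusted p = 0.0252), Pcdha2 at 1.33 ± 0.33 (0.0282), Pcdha9 at 1.16 ± 0.32 (0.0420) and Pcdhga6 at 0.99 ± 0.28 (0.0454). Pcdha12 had 16.6 and 8.18 CPM in WT CFA and 3.95 and 5.21 CPM in WT vehicle, and the library with the lower of the CFA values was again library 2. The alpha C-type isoforms were split between the WT CFA libraries. Pcdhac2 had 88.7 and 41.5 CPM in WT CFA and 27.8 and 50.6 CPM in WT vehicle, so the groups overlapped (0.73 ± 0.37, adjusted p = 0.202). Pcdhac1 had 27.3 and 10.7 CPM in WT CFA and 9.78 and 17.7 CPM in WT vehicle (0.47 ± 0.43, 0.489). Pcdhgc4, which in mouse is needed for the survival of some spinal and cortical interneurons, had 7.13 and 0.992 CPM in WT CFA and 1.64 and 3.43 CPM in WT vehicle. Its log2 fold change was 0.69 ± 0.74, and those of Pcdhgc5, Pcdhb9, Pcdhga11 and Pcdhgb6 were 1.09 ± 0.95, 0.51 ± 0.36, 0.30 ± 0.27 and 0.42 ± 0.31, none past the threshold.

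All 5 calls were lost without WT vehicle library 1, where 0.0932% of all genes rose, and 0 members passed with the 4 WT libraries alone, where 0.198% of all genes rose. Without any one of the other libraries the rise of Pcdhgc3 still passed. The count was 1 without WT vehicle library 2, iKO vehicle library 1 or 2 or iKO CFA library 2, and 2 without iKO CFA library 1, where 2.09% to 2.92% of all genes rose. Without WT CFA library 2 it was 17 of 55, all higher (30.9%), where 16.6% of all genes rose and 13.3% fell. Without WT CFA library 1 it was 6 higher (10.9%) and 2 lower (3.64%), where 15.2% of all genes rose and 19.4% fell.

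**Figure D3:**
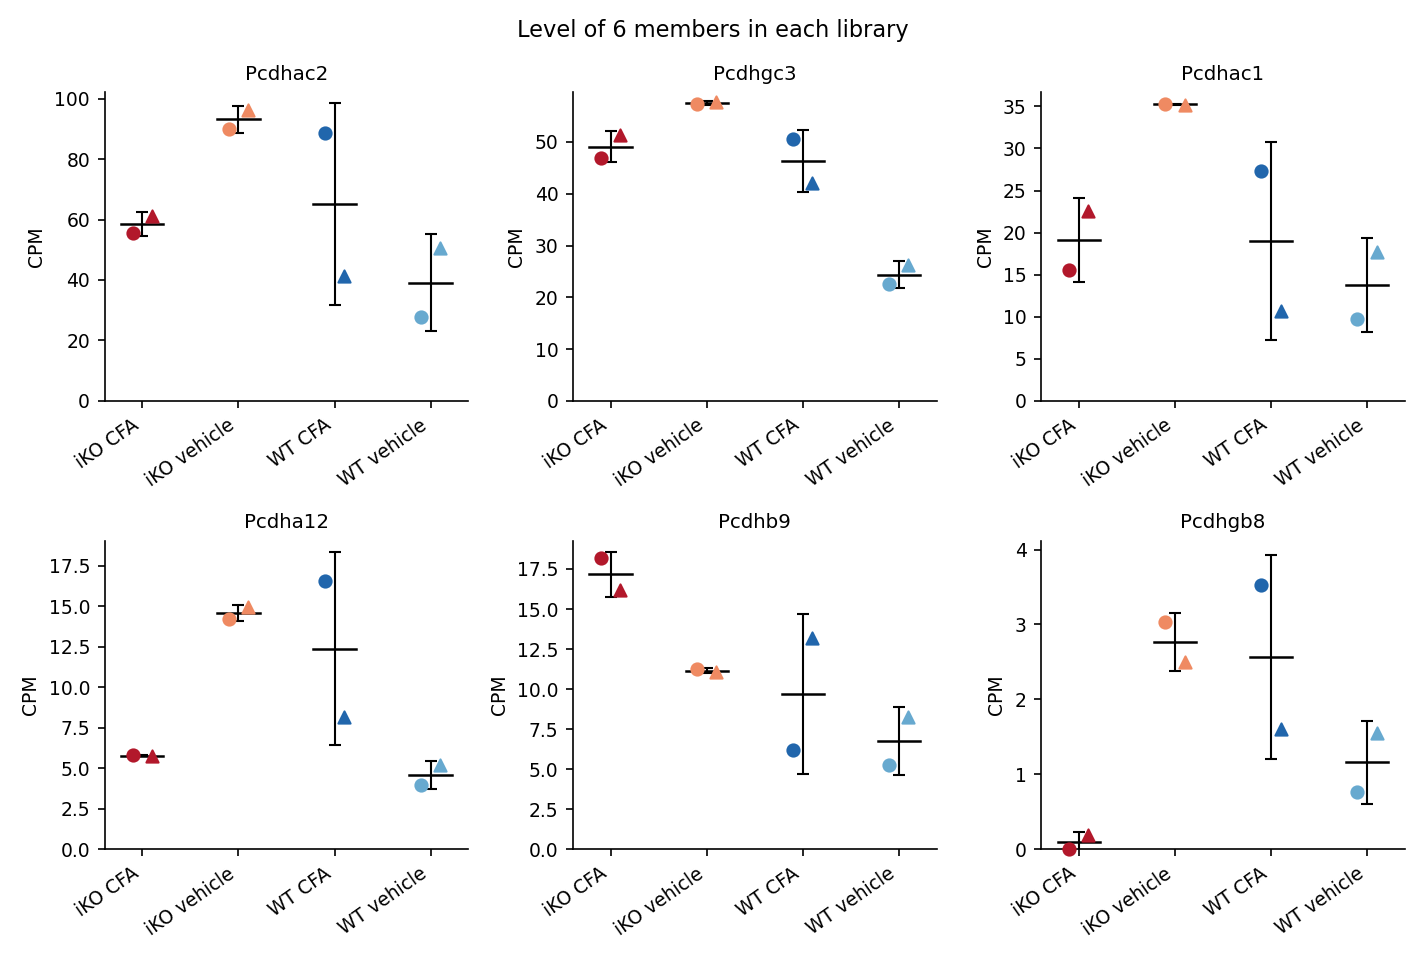
CPM (y axis, from 0) of 6 members in each library, by group (x axis), with library 1 as circles, library 2 as triangles, the mean as a line and the SD as bars (n = 2). Pcdhac2, Pcdhgc3, Pcdhac1 and Pcdha12 are lower in iKO CFA than in iKO vehicle and lowest on average in WT vehicle, Pcdhb9 is highest in iKO CFA, and Pcdhgb8 is at 0 and 0.192 CPM in iKO CFA.

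The next comparison asks how iKO and WT ganglia differ without inflammation. Ehmt2 itself was at 44.95 and 44.2 CPM in iKO CFA, 33.998 and 31.6 CPM in iKO vehicle, 74.2 and 61.3 CPM in WT CFA and 74.4 and 65.4 CPM in WT vehicle. It was lower in iKO under vehicle (-1.09 ± 0.18, edgeR adjusted p = 0.00655), and its difference under CFA did not pass (-0.60 ± 0.18, 0.154). Under vehicle 5 of the 54 members were higher in iKO than in WT and 0 lower, where 8.28% of all genes were higher and 9.33% lower. The median difference of the members was 0.50, against 0.01 for all genes, 47 lay above 0 and 13 had an unadjusted p under 0.05 (24.1%), against 34.8% of all genes. For 31 members both iKO libraries lay above both WT libraries and for 1 below, against 38.9% and 36.5% of all genes.

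Pcdhgc3 was again first by p, with 57.3 and 57.8 CPM in iKO vehicle, against 22.5 and 26.2 CPM in WT vehicle (1.24 ± 0.18, edgeR adjusted p = 0.00430). The replicates of each group lay close together beside that gap. Pcdha12 was at 14.2 and 14.9 CPM in iKO vehicle, against 3.95 and 5.21 CPM in WT vehicle (1.67 ± 0.34, adjusted p = 0.0147). Pcdhb7 (1.28 ± 0.27, 0.0175), Pcdhb10 (1.56 ± 0.36, 0.0231) and Pcdhga6 (1.05 ± 0.28, 0.0371) also passed. Both alpha C-type isoforms lay just outside the threshold. Pcdhac2 had 90.1 and 96.3 CPM in iKO vehicle, against 27.8 and 50.6 CPM in WT vehicle (1.25 ± 0.37, adjusted p = 0.0505), and Pcdhac1 had 35.3 and 35.2 CPM in iKO vehicle, against 9.78 and 17.7 CPM in WT vehicle (1.36 ± 0.44, 0.0630). The differences of Pcdhgc4 (1.44 ± 0.74), Pcdhgc5 (0.52 ± 0.95), Pcdhb9 (0.72 ± 0.36), Pcdhga11 (0.56 ± 0.26) and Pcdhgb6 (0.79 ± 0.31) did not pass. In the beta array as a whole, the median difference was 0.14, with 15 of 21 genes above 0, and all 22 gamma genes lay above 0.

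The count of members that passed was 0 without WT vehicle library 1 or iKO vehicle library 2, 1 without iKO vehicle library 1 and 2 without WT vehicle library 2, where 0.452% to 3.33% of all genes were higher. It was 16 and 18 of 55 without WT CFA libraries 1 and 2 (29.1% and 32.7%), where 21.4% and 21.2% of all genes were higher. With the 4 vehicle libraries alone it was 14 (25.9%), where 19.7% of all genes were higher, and without either iKO CFA library it was 4 (7.14%), where 3.29% and 3.13% were. The WT vehicle libraries also differed from all others in genes of other cells. Summed over 10 lymphocyte markers they held 2135 and 878 CPM, and the 6 other libraries held 3.71 to 53.6 CPM. Over 8 skeletal muscle markers WT vehicle library 1 held 424 CPM and the 7 others 1.36 to 6.97 CPM. Of the defining markers Mzb1 was at 0 in WT CFA, as were Myh1 and Myh2. By the same test, 8 of 10 lymphocyte, 5 of 8 muscle and 7 of 8 macrophage markers were lower in iKO vehicle than in WT vehicle. The share of all genes was 9.33%. The part of these cells in the differences from WT vehicle was not tested.

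Under CFA, 0 of the 54 members differed between iKO and WT in edgeR, where 1.7% of all genes passed, 1.5% higher and 0.208% lower. Of the 54, 16 had an unadjusted p under 0.05 (29.6%), against 14.7% of all genes, and DESeq2 called 6 as lower in iKO (11.1%), against 1.68% of all genes. The median difference was -0.51, against -0.02 for all genes, and 48 lay below 0. For 23 members both iKO libraries lay below both WT libraries and for 1 above, against 16.7% and 21.6% of all genes. Pcdhgb8 (-4.65 ± 0.97, edgeR adjusted p = 0.0559), Pcdhga1 (-1.69 ± 0.39, 0.0829) and Pcdhb22 (-1.14 ± 0.29, 0.106) had the smallest p. Leaving out single libraries moved the value of Pcdhgb8, which had few reads in iKO CFA, between -9.44 and -3.73. Pcdhga1, a gamma A gene, had 1.87 and 1.10 CPM in iKO CFA and 5.26 and 4.28 CPM in WT CFA. Among the C-type isoforms the differences were 0.01 ± 0.43 for Pcdhac1, -0.15 ± 0.37 for Pcdhac2 and 0.08 ± 0.18 for Pcdhgc3. For the alpha pair these values average WT CFA libraries that stood apart, and leaving out single libraries turned their sign, from -0.52 to 0.84 for Pcdhac1 and from -0.61 to 0.50 for Pcdhac2. The other differences were -0.73 ± 0.74 for Pcdhgc4, -0.83 ± 0.93 for Pcdhgc5, -1.10 ± 0.33 for Pcdha12 (adjusted p = 0.171), 0.83 ± 0.36 for Pcdhb9 (0.334), 0.11 ± 0.26 for Pcdhga11 and -0.40 ± 0.31 for Pcdhgb6. Without WT CFA library 2, 17 of 55 passed, 16 as lower (29.1%), where 15.4% of all genes passed as lower and 11.4% as higher. Without WT CFA library 1, 2 passed, 1 in each direction, where 3.29% of all genes passed. The count was 0 without each of the 6 other libraries.

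The interaction asks whether the CFA response differed between the genotypes, as the response in iKO minus that in WT. It was below 0 for 53 of the 54 members, with a median of -1.16 against -0.04 for all genes. In all, 6 passed as lower and 0 as higher, where 9.36% of all genes passed, 3.17% as lower and 6.19% as higher, and 22 members had an unadjusted p under 0.05 (40.7%), against 31% of all genes. Pcdha12 had the smallest p (-2.77 ± 0.48, edgeR adjusted p = 0.0131). Its levels were 5.81 and 5.76 CPM in iKO CFA, 14.2 and 14.9 CPM in iKO vehicle, 16.6 and 8.18 CPM in WT CFA and 3.95 and 5.21 CPM in WT vehicle, so its fitted responses had opposite signs. The others were Pcdhgb8 (-5.90 ± 1.23, 0.0256), Pcdhgc3 (-1.15 ± 0.25, 0.0289), Pcdha9 (-1.996 ± 0.45, 0.0335), Pcdhb7 (-1.67 ± 0.39, 0.0345) and Pcdhga6 (-1.69 ± 0.40, 0.0367). Each array was represented among them, by 2 alpha, 1 beta and 3 gamma genes. The value of Pcdhgb8, which had few reads in iKO CFA, ran from -10.6 to -4.98 when single libraries were left out. Pcdhac2 (-1.40 ± 0.52), Pcdhac1 (-1.35 ± 0.61), Pcdhgc4 (-2.16 ± 1.04), Pcdhgc5 (-1.35 ± 1.33), Pcdhga11 (-0.44 ± 0.37) and Pcdhgb6 (-1.18 ± 0.44) did not pass. The 1 member above 0 was Pcdhb9 (0.11 ± 0.51). DESeq2 called 14, all lower (25.9%), against 9.15% of all genes. The count was 0 without WT vehicle library 1, iKO vehicle library 2 or iKO CFA library 1, 1 without iKO vehicle library 1 or iKO CFA library 2, and 2 without WT vehicle library 2, where 0.0186% to 1.23% of all genes passed as lower. It was 9 of 55 without WT CFA library 1 and 24 of 55 without WT CFA library 2, all lower (16.4% and 43.6%), where 10.4% and 21.3% of all genes passed as lower.

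**Figure D4:**
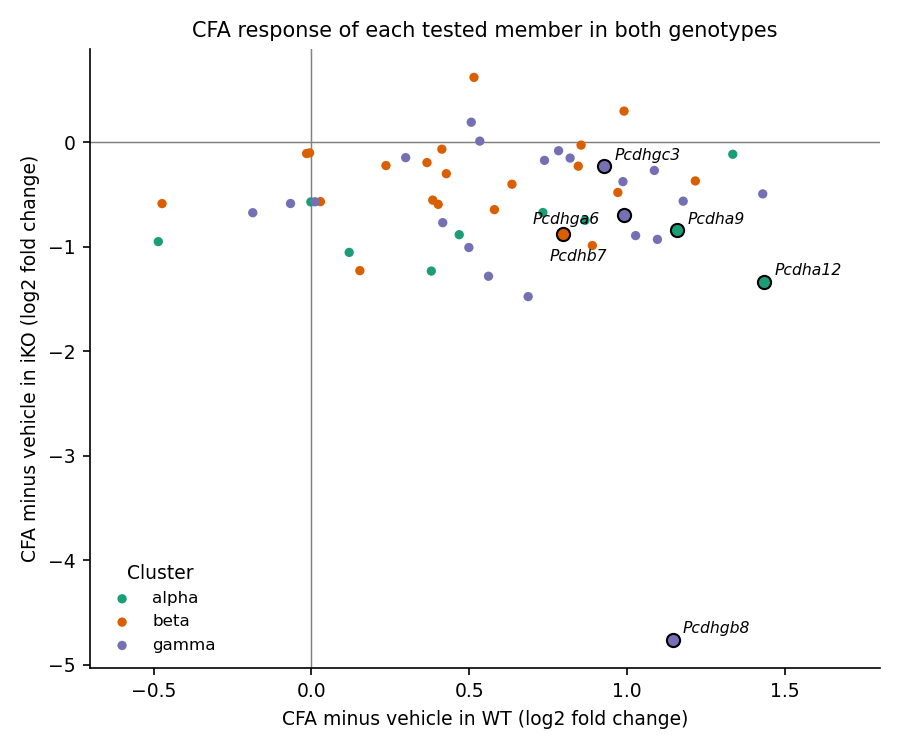
Log2 fold change of CFA over vehicle in iKO (y axis) against that in WT (x axis) for 53 tested members, coloured by array; Pcdha8 is left out because both iKO CFA libraries held 0 reads of it. Outlined and named points are the 6 members whose interaction passed, and most points lie right of 0 and below 0.

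Averaged over treatments, iKO exceeded WT for 1 member and fell below it for 0, where 3.18% of all genes were higher and 2.4% lower. That member was Pcdhgc3 (0.66 ± 0.13, edgeR adjusted p = 0.0209). The median over the members was -0.02, against -0.01 for all genes, 25 of 54 lay above 0 and 9 had an unadjusted p under 0.05 (16.7%), against 22.6% of all genes. Pcdhac1 (0.68 ± 0.31), Pcdhac2 (0.55 ± 0.26), Pcdhgc4 (0.35 ± 0.52), Pcdhgc5 (-0.15 ± 0.67), Pcdha12 (0.28 ± 0.23), Pcdhb9 (0.77 ± 0.26), Pcdhga11 (0.34 ± 0.19) and Pcdhgb6 (0.20 ± 0.22) did not pass. The call of Pcdhgc3 was lost when either WT vehicle library or 1 of the iKO libraries was left out, with values from 0.60 to 0.71, and was kept without either WT CFA library. In the count of calls, 0 passed without each of those 6 libraries, and 9 of 55 passed without WT CFA library 1 or 2. Without library 1 all 9 were higher (16.4%), where 14.1% of all genes were, and without library 2, 3 were higher (5.45%) and 6 lower (10.9%), where 10.8% of all genes were higher and 11.1% lower.

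Which isoforms made up each array also differed between libraries. The C-type isoforms held 47.7% and 48.5% of gamma reads in iKO CFA, 43.2% and 45.5% in iKO vehicle, 36.9% and 39.7% in WT CFA and 32.9% and 35.3% in WT vehicle. Every iKO library thus lay above every WT library, and within each genotype both CFA libraries lay above both vehicle libraries. Pcdhgc3 alone held 44.9% and 46.0% of gamma reads in iKO CFA, 39.0% and 39.7% in iKO vehicle, 31.7% and 38.5% in WT CFA and 30.3% and 30.9% in WT vehicle. Within the alpha array the C-type share was 73.9% and 76.7% in iKO CFA, 72.9% and 73.3% in iKO vehicle, 66.3% and 61.5% in WT CFA and 64.5% and 69.1% in WT vehicle. Here too the 4 iKO libraries lay above the 4 WT libraries. Pcdhb9 held 22.2% and 21.9% of beta reads in iKO CFA, 12.6% and 12.1% in iKO vehicle, 5.82% and 13.8% in WT CFA and 7.92% and 10.4% in WT vehicle. Both iKO CFA libraries stood above all 6 others. These shares are given without a test. The exact 95% binomial interval of each, which covers counting error only, reached at most 2.38 percentage points to either side. As 4 iKO against 4 WT libraries mix treatments, the separation by genotype rests on 2 libraries in each group.

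The summed level of the members followed that of the sensory neuron markers. The 14 markers (such as Tubb3, Uchl1, Nefl and Scn10a) summed to 14631 and 14353 CPM in iKO CFA, 21406 and 21841 CPM in iKO vehicle, 22211 and 15512 CPM in WT CFA, and 10183 and 13257 CPM in WT vehicle, a 2.18-fold span. All 14 had reads in every group. Per 1000 CPM of these markers, the 57 members held 19.3 and 20.5 CPM in iKO CFA, 19.1 and 19.1 CPM in iKO vehicle, 19.8 and 18.7 CPM in WT CFA, and 19.6 and 19.8 CPM in WT vehicle. The highest exceeded the lowest 1.10-fold, where the summed CPM of the members spanned 2.21-fold. Without Nefl, which held 26.4% of the marker sum, the span was 1.09-fold, and against the geometric mean of the markers it was 1.29-fold, with iKO CFA highest. Of the 14 markers, 0 passed in either direction with CFA in iKO, 4 rose with CFA in WT and 4 were higher in iKO under vehicle. Under CFA 0 differed, and 5 passed as lower in the interaction. The shares of all genes were 0.0395%, 8.12%, 8.28%, 1.7% and 3.17%, in that order.

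Some classes still differed on this scale, which was chosen after the data had been seen. The gamma C isoforms held 3.41 and 3.76 CPM per 1000 marker CPM in iKO CFA, 2.97 and 3.03 in iKO vehicle, 2.65 and 2.80 in WT CFA and 2.40 and 2.26 in WT vehicle, with every iKO library above every WT library. The beta genes held 5.58 and 5.15 in iKO CFA, 4.16 and 4.19 in iKO vehicle, 4.77 and 6.16 in WT CFA and 6.53 and 6.001 in WT vehicle, so iKO vehicle lay lowest. The alternate alpha genes went the other way from gamma C in iKO CFA, at 1.72 and 1.78, below the 2.03 to 2.65 of the 6 other libraries. Pcdhb9 stood at 1.24 and 1.13 in iKO CFA, against 0.278 to 0.852 in the 6 other libraries. The marker list itself includes Avil, the gene whose regulatory sequence drives Cre, which was lower in iKO averaged over treatments (-1.07 ± 0.26, edgeR adjusted p = 0.0495). Markers of other ganglion cells stood higher in iKO CFA than in iKO vehicle. The 8 myelinating Schwann cell markers summed to 16218 and 14951 CPM in iKO CFA, 6211 and 7084 CPM in iKO vehicle, 7380 and 17946 CPM in WT CFA and 11156 and 6454 CPM in WT vehicle. The 8 satellite glia markers summed to 9543 and 9883 CPM in iKO CFA, 5543 and 5948 CPM in iKO vehicle, 5993 and 11946 CPM in WT CFA and 6719 and 5178 CPM in WT vehicle. Of the Schwann cell markers 0 passed with CFA in iKO, 1 fell with CFA in WT, 1 was lower in iKO under vehicle and 1 passed as higher in the interaction. Of the satellite glia markers 0 passed with CFA in iKO, 2 rose with CFA in WT, 1 was lower in iKO under vehicle and 0 passed in the interaction. Of all genes, 8.71% fell and 8.12% rose with CFA in WT. Under vehicle 9.33% were lower in iKO, and 6.19% passed as higher in the interaction. Summed over their lists, macrophage markers spanned 95.4 to 485 CPM, fibroblast markers 979.6 to 2526 CPM, endothelium markers 104 to 222 CPM and erythroid markers 139.5 to 1653 CPM, and the 6 spinal cord markers found spanned 34.4 to 86.3 CPM, with Olig1 or Chat at 0 in 3 groups. The part of cell composition in the results for the members was not tested.

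**Figure D5:**
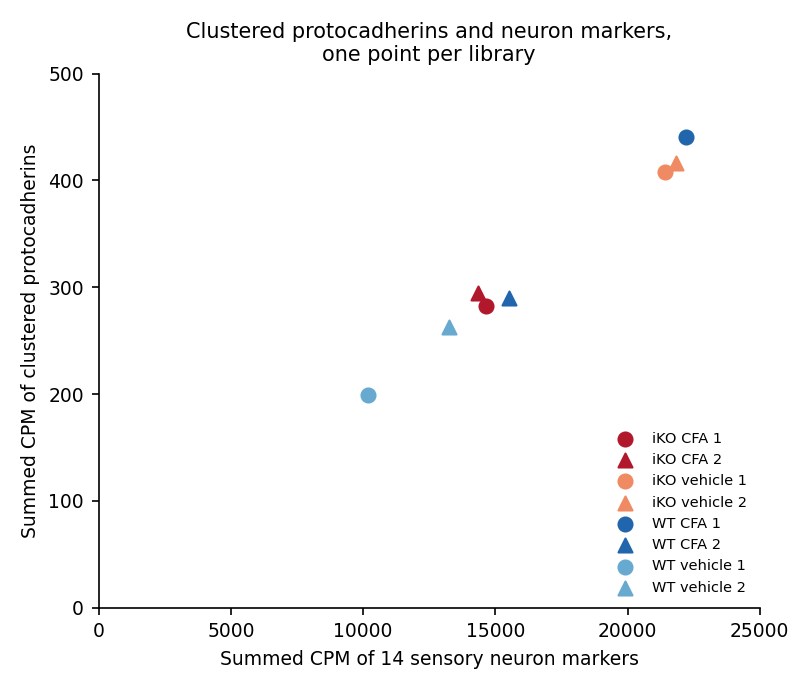
Summed CPM of the 57 members (y axis) against summed CPM of 14 sensory neuron markers (x axis), 1 point per library, both axes from 0, with library 1 as circles and library 2 as triangles. WT CFA library 1 and the iKO vehicle libraries lie at the top, WT vehicle library 1 at the bottom, and the members amount to 18.7 to 20.5 CPM per 1000 CPM of the markers.

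Genes around the family were read in the same fit. Of all genes, 8.12% rose with CFA in WT, and under vehicle 8.28% were higher and 9.33% lower in iKO. In the interaction 6.19% passed as higher and 3.17% as lower, and averaged over treatments 3.18% were higher in iKO. The 10 non-clustered protocadherins, single genes outside the arrays, summed to 282 and 290 CPM in iKO CFA, 543 and 579 CPM in iKO vehicle, 524 and 339 CPM in WT CFA and 287 and 351 CPM in WT vehicle. Under vehicle 5 of the 10 were higher in iKO and 0 lower, among them Pcdh10 (0.90 ± 0.18, edgeR adjusted p = 0.0145) and Pcdh7 (0.90 ± 0.21, 0.0239), and 4 passed as lower in the interaction, first Pcdh10 (-1.52 ± 0.26, 0.0123). With CFA in WT 1 rose, again Pcdh10 (0.83 ± 0.18, 0.0198), and with CFA in iKO, between genotypes under CFA and averaged over treatments 0 passed. The 16 genes that flank the arrays on the chromosome varied little in sum, between 576 and 677 CPM. With CFA in WT 2 of them rose, Rell2 (1.42 ± 0.21, adjusted p = 0.00571) and Taf7 (0.88 ± 0.20, 0.0216), which lies between the beta and gamma arrays, and under vehicle Rell2 was higher (1.63 ± 0.21, 0.00288) and Arap3 lower (-1.13 ± 0.24, 0.0157) in iKO. Rell2 passed as lower and Arap3 as higher in the interaction, Rell2 as higher averaged over treatments, and 0 in the other comparisons.

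The 11 genes of cohesin, its loaders and CTCF shape promoter choice in the arrays. Of these, 2 were lower in iKO under vehicle and 2 fell with CFA in WT, against 9.33% and 8.71% of all genes. In the other 4 comparisons 0 passed. Nipbl, the cohesin loader, was at 29.0 and 26.3 CPM in iKO CFA, 34.8 and 27.2 CPM in iKO vehicle, 31.9 and 29.4 CPM in WT CFA and 70.9 and 53.1 CPM in WT vehicle. Only the WT vehicle libraries stood apart, and Nipbl was lower in iKO under vehicle (-0.999 ± 0.21, edgeR adjusted p = 0.0158) and fell with CFA in WT (-1.02 ± 0.21, 0.0160). Ctcf fell with CFA in WT (-0.65 ± 0.17, 0.0341), and Wapl, which releases cohesin, was lower in iKO under vehicle (-0.64 ± 0.18, 0.0416). Of 21 chromatin regulators of the arrays, 5 were lower in iKO under vehicle, against 9.33% of all genes, and 6 fell with CFA in WT, against 8.71%. In the interaction 1 passed as higher, against 6.19% of all genes. Averaged over treatments 5 were lower in iKO, against 2.4%, and 0 passed in the other comparisons. Ehmt2, the gene floxed in iKO, was among the 5 both times. Dnmt3a, a DNA methyltransferase, was at 13.6 and 16.4 CPM in iKO CFA, 17.2 and 16.8 CPM in iKO vehicle, 13.3 and 16.7 CPM in WT CFA and 42.1 and 39.6 CPM in WT vehicle. It too differed mainly through WT vehicle (iKO minus WT under vehicle -1.26 ± 0.20, adjusted p = 0.00551). A list of cytoplasmic partners, direct or indirect, held 15 genes, among them those of the focal adhesion kinases Ptk2 and Ptk2b. Of these 15, 1 rose with CFA in WT (Pdcd10, 1.41 ± 0.38, 0.0367), against 8.12% of all genes, and 0 passed in the other 5 comparisons.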

How the data were processed

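RNA of mouse dorsal root ganglia was sequenced in 8 libraries of 4 groups, and the deposited values are raw read counts by gene symbol, which the authors made with HISAT2 2.2.1, SAMtools 1.19.2 and featureCounts 2.0.6 on GRCm39, per the submitters' processing notes, which also name DESeq2. The annotation and the strand and multiple-overlap settings are not given in the sources used here, and the labels name no batch. Each file held 25780 genes and 0 further columns of other samples.

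In R 4.3.3 with edgeR 4.0.16, genes were filtered with filterByExpr (20235 left), scaled by TMM and fitted with 1 mean per group over all 8 libraries. Two-sided quasi-likelihood F-tests were adjusted by Benjamini-Hochberg over all genes tested, with a threshold of 0.05. Values are log2 fold changes ± a standard error derived from the test. It is the absolute log2 fold change divided by the square root of the F value. On data simulated for iKO against WT under vehicle (20235 genes), the test was checked before use. The simulation gave every gene and group the same spread, so it cannot show how the test behaves where groups differ in spread, as here. Levels per length used exons of GENCODE M21 (GRCm38), and only lengths and gene order were taken from it. Alternatives were DESeq2 1.42.0, RLE size factors, other filters (none, or at least 50 reads in at least 2 libraries), legacy = FALSE, a replicate block, each library left out, and the groups compared alone.

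The members, the 5 gene lists and 10 marker lists, the naming rule and the tests were chosen with earlier results of these data known. Named were the members that passed (with 0, the 3 with the smallest p), the C-type isoforms, the most abundant gene of each other class, and up to 4 genes of each list in a comparison. Pcdha4, Pcdha6, Pcdha7 and Pcdha8 were named for their low counts after these had been seen. Replicates differed by more than sampling noise in every group (chi-square per gene 11.4 to 297). No sequence is shown.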

Additional observations from a re-analysis of the deposited data

Results flagged for a closer look

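For 6 of the 54 tested members the test of the difference between the CFA responses in iKO and WT itself passed, which is why they are listed here. Of all genes 9.36% passed, 3.17% as lower. Among sensory neuron markers 5 of 14 passed as lower, and among non-clustered protocadherins 4 of 10. The difference, as iKO minus WT response on the log2 scale, was -2.77 for Pcdha12, -1.996 for Pcdha9, -1.67 for Pcdhb7, -1.69 for Pcdhga6, -5.90 for Pcdhgb8 and -1.15 for Pcdhgc3. Each was lost without WT vehicle library 1, iKO vehicle library 2 or iKO CFA library 1. In all 6 the fold change with CFA was below 0 in iKO and above 0 in WT. The size of the Pcdhgb8 difference is uncertain, from -10.6 to -4.98 when single libraries were left out. Of all 54 tested members, 50 lay below 0 in iKO and 47 above 0 in WT.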

How the results depend on the processing

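Counts of members past the threshold depended on tool, samples and library, and those of all genes moved too. With DESeq2 they were 4 for CFA in iKO (2 members had no adjusted p), 9 for iKO against WT under vehicle, 6 under CFA, 14 for the interaction and 3 averaged over treatments, where 17.0%, 26.3%, 6.09%, 20.4% and 12.8% of all genes passed in either direction. Without the filter on low counts 1 passed for CFA in iKO and 1 for iKO against WT under CFA, and with legacy = FALSE 1 for CFA in iKO, 8 for the genotypes under vehicle and 2 under CFA. Of all genes 1.98% and 1.94% passed in these comparisons without the filter, and 0.894%, 22.8% and 2.68% with legacy = FALSE. With only the groups compared, 17 passed for CFA in iKO, 0 for CFA in WT and 14 for the genotypes under vehicle, where 45.3%, 4.04% and 42.9% of all genes passed. Leaving out each library gave 0 to 15 for CFA in iKO, 0 to 17 for CFA in WT, 0 to 18 and 0 to 17 for the genotypes under vehicle and CFA, 0 to 24 for the interaction and 0 to 9 averaged. The differences between libraries 1 and 2 showed little correlation between groups (-0.144 to 0.0275). With 2 libraries per group, this cannot decide whether the numbers are pairs. With the replicate block, 3 passed for CFA in WT and 2 for the interaction, where 12.5% and 5.25% of all genes passed. A block with crossed numbers, added after the data were seen and fitted to the 4 WT libraries alone, gave 1 member and 13.1% of all genes, where the same 4 libraries without a block gave 0 and 4.04%. The cause of these changes was not tested.

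The log2 ratio of the summed CPM was, per neuron markers (added after the data were seen), 0.065 for CFA in iKO, -0.034 for CFA in WT, -0.0475 for the genotypes under vehicle and 0.051 under CFA. With total reads it was -0.42 for CFA in iKO, 0.33 for CFA in WT, 0.59 for the genotypes under vehicle and -0.16 under CFA. Without single libraries it was -0.54 to -0.48 for CFA in iKO, 0.33 to 0.93 for CFA in WT, 0.65 to 1.05 for the genotypes under vehicle and -0.61 to -0.0042 under CFA.

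Single members turned in sign in 19 cases, 18 of them by leaving out 1 library. With CFA in WT the ranges were -0.38 to 0.99 for Pcdhac1, -1.36 to 1.48 for Pcdhgc4, -0.40 to 1.79 for Pcdhgc5 and -0.13 to 0.95 for Pcdhb9, and for Pcdhgc5 with CFA in iKO -0.60 to 0.017. Between the genotypes under CFA they were -0.52 to 0.84 for Pcdhac1, -0.61 to 0.50 for Pcdhac2, -0.049 to 0.22 for Pcdhgc3, -1.54 to 1.31 for Pcdhgc4, -1.54 to 0.64 for Pcdhgc5 and -0.12 to 0.38 for Pcdhga11, and without the filter -0.00053 for Pcdhac1. The interaction ran from -2.07 to 0.12 for Pcdhgc5 and from -0.34 to 0.75 for Pcdhb9, and the averaged difference from -0.51 to 0.59 for Pcdhgc5 and from -0.051 to 1.37 for Pcdhgc4. None of these passed as main results. Of the other settings of single members, 824 kept direction and side of the threshold, 74 gained it and 102 lost it. The median tested member held 79.5 to 186.5 reads per library.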
